A study of Rattus norvegicus with 20 samples.

Results

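The oligoadenylate synthetases (Oas genes) are an interferon-induced family whose transcripts were followed here in the blood of rats fed polyphenols. The family was chosen from measured values, because its transcripts had been seen to be lower in rats given pterostilbene. The level of the members with that diet against the control diet is therefore described without a test. Of the 8 genes of the family that were listed, 7 had a row among the 32882 genes of the count table, and Oas1b was not analysed here. The rows of Oas1g and Oas1i held equal counts in 17 of 20 rats and differed by at most 2 reads in the others, so the 7 rows give 6 separate measurements. In RefSeq, Oas1g is a synonym of Oas1a, and Oas1i is a separate gene. How reads were divided among the near-identical Oas1 copies is uncertain, and the values of every Oas1 row carry that limit.

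Whole blood was taken from 20 male wild-type F344 rats labelled as 8 weeks old, and its RNA was sequenced as single reads. The CSAA+PTS diet held 1.34 g/kg of pterostilbene (PTS), the CSAA+RSV diet 1.2 g/kg of resveratrol (RSV), and the CSAA+CGA diet 1.9 g/kg of chlorogenic acid (CGA). All were added to the same base diet, CSAA, defined in its amino acids and sufficient in choline, which the control rats received alone. Rats were fed for 20 days, and the blood of 5 rats of each diet was sequenced. PTS is RSV with methoxy groups in place of a pair of its hydroxyl groups, and CGA is an unrelated polyphenol. CSAA+RSV Rat4 had 861072 counts, against 24036703 to 36743103 in the other 19 rats, and was left out of all levels and tests, so CSAA+RSV had 4 rats. The fifth rat of every diet stood apart in having 25104 to 29543 genes detected, against 19600 to 23632 in the other 15 rats. CSAA Rat5, at 25104, was the nearest to those rats, and the fifth rats of the supplemented diets had 28014 to 29543. Markers of neutrophils, monocytes, T cells, B cells, NK cells, erythroid cells and platelets were all present, as whole blood would hold them.

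When an Oas enzyme binds double-stranded RNA, it joins ATP into short chains, the 2′,5′-linked oligoadenylates (2-5A). These chains act as a signal that limits the growth of viruses in the cell. Oas1, Oas2 and Oas3 proteins carry 1, 2 and 3 copies of the basic Oas unit, not all of which need be catalytic. Rodents have many Oas1 copies and a pair of Oas-like genes, Oasl and Oasl2. In blood the family is a well known readout of type I interferon, which acts through the factor ISGF3 on a short element in the promoters of its target genes.

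That element has at its core a pair of GAAA a few bases apart. All 12 Oas genes in RefSeq lie on chromosome 12, in the order Oas1i, Oas1d, Oas1a, Oas1h, Oas1f, Oas1b, Oas1e, Oas1k, Oas3, Oas2, and, past 60 other protein-coding genes, Oasl and Oasl2. The letters GAAANNGAAA were searched on both strands in a window of 250 bases before to 50 bases after each start (RefSeq, build GRCr8). They were found in 5 of the 6 listed members with a window, and in 1312 of all 33469 windows, or 3.92%. The stretches are shown because most members with a window share this feature. Capitals mark the match, with 20 bases on either side, 5′ to 3′ in the direction of the gene:
Oas1a: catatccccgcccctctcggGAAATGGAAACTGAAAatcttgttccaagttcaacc
Oas1b: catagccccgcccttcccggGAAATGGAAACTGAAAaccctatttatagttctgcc
Oas1i: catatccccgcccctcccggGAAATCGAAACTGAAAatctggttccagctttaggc
Oas3: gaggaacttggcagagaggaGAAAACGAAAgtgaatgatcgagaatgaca
Oasl2: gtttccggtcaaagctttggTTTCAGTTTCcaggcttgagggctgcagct

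These stretches lie at chr12:41330405-41330460 (plus strand, Oas1a), chr12:41395876-41395931 (minus strand, Oas1b), chr12:41285170-41285225 (plus strand, Oas1i), chr12:41439617-41439666 (plus strand, Oas3) and chr12:47383307-47383356 (minus strand, Oasl2) of GRCr8, a later build than the one the counts were made on. The 3 Oas1 stretches each hold 2 overlapping matches, which start 41 bases before the start in Oas1a, 59 in Oas1b and 36 in Oas1i. In Oas3 a single match starts 95 bases before the start, and in Oasl2 a single match, on the opposite strand, starts 151 bases before it. The Oasl window held no match. Of the other Oas1 genes, the windows of Oas1d, Oas1e, Oas1f and Oas1h held none. A second set of letters, TTCNNNGAA, the core of the site through which interferon gamma acts, was present in 8.87% of all windows and in those of Oas1a, Oas1b and Oas1e. A match is a set of letters and was not tested as a site.

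**Figure D1:**
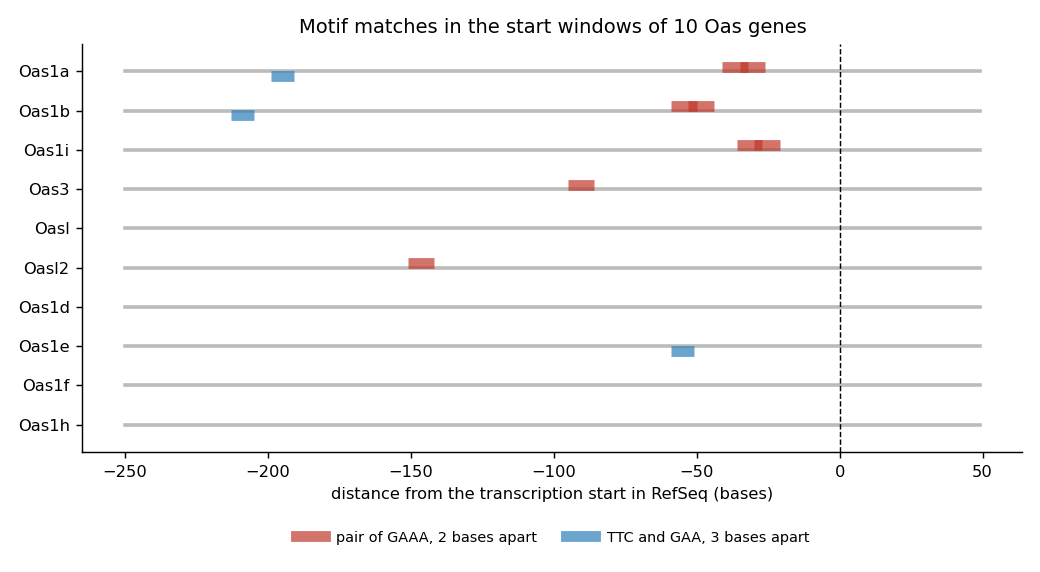
Matches to the 2 motifs in the start windows of 10 Oas genes, by distance in bases from the transcription start (dashed line), each grey line being a window of 300 bases. The paired GAAA (red) lies 21 to 59 bases before the start in the 3 Oas1 genes that hold it and farther out in Oas3 and Oasl2.

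Levels are given in CPM, the count of a gene for each 1000000 reads after scaling between libraries. Per kb of gene model, Oas1a was the most abundant member, at 23.4 CPM per kb on average over 19 rats (range 6.73 to 37.9). Oasl2 followed with 13.7 CPM per kb (8.35 to 23.8). Oas1g had 5.98 CPM per kb (2.27 to 8.64), Oas3 had 4.83 (1.75 to 9.62) and Oasl had 4.00 (1.85 to 7.07). The ranges of these 3 genes over rats overlapped, and the genes were not compared within each rat. Oas2 was the least abundant member, at 1.70 CPM per kb (0.771 to 3.17). Oas1f, an Oas1 copy outside the listed family, was close to Oasl2 at 14.5 CPM per kb (5.54 to 22.5). The copies Oas1h, Oas1e and Oas1d were nearly silent, with 0.421, 0.136 and 0.0748 CPM per kb. Each member row held 59 to 2330 reads in each of the 19 rats.

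Every measured member had its lowest mean with CSAA+PTS. Summed over the 6 separate measurements, the family stood at 82.2 ± 19.4 CPM with CSAA+PTS (SD, n = 5), at 147 ± 12.9 CPM with CSAA+RSV (n = 4), at 132 ± 23.6 CPM with CSAA+CGA (n = 5) and at 147 ± 27.6 CPM with CSAA (n = 5). The 5 CSAA+PTS rats lay between 54.9 and 107 CPM, below the 123 to 193 CPM of the CSAA rats and the 137 to 164 CPM of the CSAA+RSV rats. They overlapped with the CSAA+CGA rats, whose lowest sum was 98.5 CPM.

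**Figure D2:**
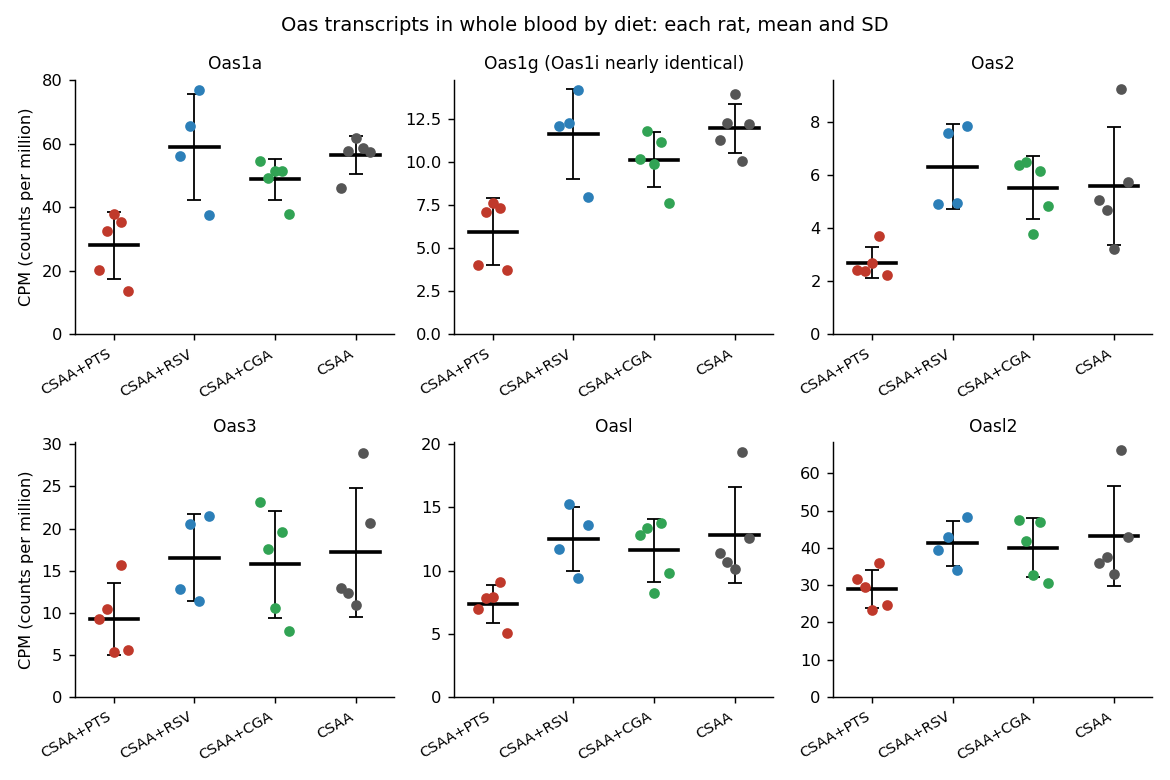
CPM of the 6 separate Oas measurements in each rat (points), with the mean and SD (bars), for CSAA+PTS (n = 5), CSAA+RSV (n = 4), CSAA+CGA (n = 5) and CSAA (n = 5), on linear axes from 0. The CSAA+PTS points sit lowest as a group in every panel, and the highest CSAA point in the panels of Oas2, Oas3, Oasl and Oasl2 is the same rat.

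Oas1a (ENSRNOG00000001369), the main single-unit synthetase of the locus, had 20.2, 32.6, 37.8, 35.5 and 13.7 CPM in CSAA+PTS Rat1 to Rat5. It had 56.3, 65.5, 77.0 and 37.5 CPM in CSAA+RSV Rat1, Rat2, Rat3 and Rat5, and 54.5, 49.1, 51.3, 51.4 and 37.8 CPM in CSAA+CGA Rat1 to Rat5. In CSAA Rat1 to Rat5 it had 46.1, 57.7, 61.8, 58.8 and 57.5 CPM. Every CSAA+PTS rat was below every CSAA rat. The fifth rat was the lowest of its diet in CSAA+PTS, CSAA+RSV and CSAA+CGA, but not in CSAA. The log2 fold change of CSAA+PTS against CSAA was -1.01 (SE 0.229, 95% interval -1.49 to -0.53), and it was -0.84 with the fifth rats left out.

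Oas1g (ENSRNOG00000047076), whose values also stand for Oas1i (ENSRNOG00000037744), repeated this pattern at a lower level. It had 4.01, 7.12, 7.64, 7.33 and 3.73 CPM in CSAA+PTS Rat1 to Rat5. In CSAA+RSV Rat1, Rat2, Rat3 and Rat5 it had 12.1, 12.3, 14.2 and 7.96 CPM, and in CSAA+CGA Rat1 to Rat5 it had 10.2, 11.8, 9.87, 11.2 and 7.64 CPM. The CSAA rats had 11.3, 12.3, 13.9, 10.1 and 12.2 CPM. Every CSAA+PTS rat was below every rat of the other diets, though CSAA+CGA Rat5 and CSAA+RSV Rat5 came close to the highest of them. CSAA+PTS differed from CSAA by a log2 fold change of -1.003 (SE 0.202, 95% interval -1.43 to -0.58).

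Oas2 (ENSRNOG00000049282), which carries 2 Oas units, had 2.43, 2.40, 2.68, 3.70 and 2.24 CPM in CSAA+PTS Rat1 to Rat5. In CSAA+RSV Rat1, Rat2, Rat3 and Rat5 it had 4.92, 7.58, 4.93 and 7.83 CPM, and in CSAA+CGA Rat1 to Rat5 it had 6.36, 6.50, 3.77, 6.14 and 4.84 CPM. The CSAA rats had 5.05, 4.69, 3.23, 9.23 and 5.74 CPM. The CSAA+PTS rats were below every rat of the other 2 supplemented diets, and overlapped with CSAA because of CSAA Rat3 alone. The log2 fold change of CSAA+PTS against CSAA was -1.06 (SE 0.242, 95% interval -1.56 to -0.55). It was -0.80 without CSAA Rat4 and -0.75 in limma-voom, which gives each rat a weight.

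Oas3 (ENSRNOG00000059207) carries 3 Oas units. It had 9.20, 10.5, 5.28, 15.7 and 5.57 CPM in CSAA+PTS Rat1 to Rat5. In CSAA+RSV Rat1, Rat2, Rat3 and Rat5 it had 12.8, 20.5, 11.4 and 21.5 CPM, and in CSAA+CGA Rat1 to Rat5 it had 23.2, 17.6, 10.6, 19.5 and 7.88 CPM. The CSAA rats had 12.96, 12.4, 10.9, 29.0 and 20.6 CPM. The diets overlapped: CSAA+PTS Rat4 was above 3 of the 5 CSAA rats. The log2 fold change of CSAA+PTS against CSAA was -0.89 (SE 0.350, 95% interval -1.63 to -0.16). It was -0.62 without CSAA Rat4 and -0.38 in limma-voom.

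Oasl (ENSRNOG00000001187) is the Oas-like gene whose mouse counterpart, Oasl1, makes no 2-5A and holds back translation of the interferon factor Irf7. It had 6.95, 7.81, 7.92, 9.10 and 5.07 CPM in CSAA+PTS Rat1 to Rat5. In CSAA+RSV Rat1, Rat2, Rat3 and Rat5 it had 11.7, 15.3, 9.38 and 13.6 CPM, and in CSAA+CGA Rat1 to Rat5 it had 12.8, 13.4, 8.19, 13.8 and 9.80 CPM. The CSAA rats had 11.4, 10.6, 10.1, 19.4 and 12.6 CPM. The CSAA+PTS rats were below every CSAA and CSAA+RSV rat, while CSAA+CGA Rat3 fell among them. The log2 fold change of CSAA+PTS against CSAA was -0.80 (SE 0.202, 95% interval -1.22 to -0.38).

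Oasl2 (ENSRNOG00000028814), the Oas-like gene that in mouse still makes 2-5A, was the most abundant of the non-Oas1 members. It had 31.6, 29.5, 23.3, 35.9 and 24.6 CPM in CSAA+PTS Rat1 to Rat5. In CSAA+RSV Rat1, Rat2, Rat3 and Rat5 it had 39.5, 42.9, 34.1 and 48.4 CPM, and in CSAA+CGA Rat1 to Rat5 it had 47.6, 42.0, 32.8, 47.0 and 30.6 CPM. The CSAA rats had 36.0, 37.6, 32.9, 66.2 and 43.0 CPM. The groups overlapped, since CSAA+PTS Rat4 was above CSAA Rat3. The log2 fold change of CSAA+PTS against CSAA was the closest to 0 of the family, at -0.57 (SE 0.184, 95% interval -0.96 to -0.19). It was -0.37 without CSAA Rat4 and -0.32 in limma-voom.

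All 7 member rows were thus lower with CSAA+PTS, as were 47.2% of the 16734 genes tested, and the median of the 6 measurements was -0.95 on the log2 scale, against 0.02 for all genes. In 4 of the 7 rows (Oas1a, Oas1g, Oas1i and Oasl) every CSAA+PTS rat was below every CSAA rat, which held for 0.884% of all genes. The members were picked from this contrast, so these counts describe the choice and carry no test. In edgeR 0 genes (0%) passed a false discovery rate (FDR) of 0.05 for CSAA+PTS against CSAA, the members included, while 1269 genes had an unadjusted p under 0.05. DESeq2 fitted to the 4 diets called 4 genes, DESeq2 fitted to the 2 diets called 13, and limma-voom with sample weights called 26. Oas1f, which was not listed, had 55.3 ± 17.2 CPM with CSAA+PTS and 85.2 ± 18.3 CPM with CSAA (SD, n = 5 each), a log2 fold change of -0.62 (SE 0.212). The weakly expressed Oas1d, Oas1e and Oas1h had log2 fold changes of 0.43 (SE 0.612), -0.29 (SE 0.551) and 0.16 (SE 0.398).

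With RSV or CGA in the diet the family was near its level with the control diet. For CSAA+RSV against CSAA, the log2 fold changes of the 7 rows ran from -0.07 in Oasl2 to 0.17 in Oas2 (edgeR adjusted p = 0.9998 for each), and 0 of 16734 genes passed the FDR (0%). None of the 7 rows had an unadjusted p under 0.05, against 2.12% of all genes. For Oas1a the 95% interval was -0.44 to 0.57, for Oas1g -0.48 to 0.40 and for Oas2 -0.35 to 0.69. For Oas3 the interval, -0.82 to 0.71, was the widest of the family. For CSAA+CGA against CSAA all 7 rows were slightly below 0, from -0.24 in Oas1g to -0.02 in Oas2, and again 0 of 7 reached an unadjusted p of 0.05 (0.639% of all genes) and 0 genes passed the FDR (0%). The 95% interval was -0.68 to 0.27 for Oas1a, -0.65 to 0.18 for Oas1g and -0.51 to 0.47 for Oas2 (adjusted p = 0.9999 in edgeR for each row). Both comparisons share the 5 CSAA rats.

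**Figure D3:**
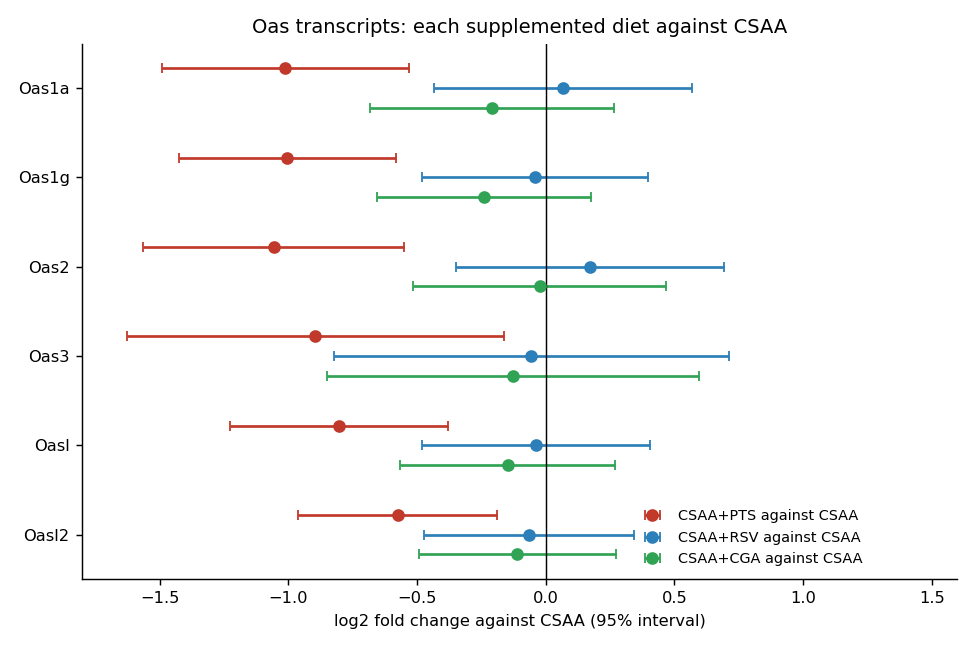
Log2 fold changes of the 6 separate Oas measurements against CSAA with 95% intervals from edgeR, for CSAA+PTS (red), CSAA+RSV (blue) and CSAA+CGA (green). The CSAA+PTS estimates run from -1.06 to -0.57, and every interval of the other 2 diets includes 0. The CSAA+PTS values are those the members were picked from.

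PTS was compared directly with its parent compound at doses the study set to be equal in molar terms. The CSAA+PTS rats are the ones on which the family was picked, so these comparisons are not independent of that choice. Against CSAA+RSV the log2 fold changes were -1.23 for Oas2 (SE 0.253, 95% interval -1.76 to -0.70), -1.08 for Oas1a (SE 0.240, -1.58 to -0.58), -0.96 for Oas1g (SE 0.211, -1.41 to -0.52), -0.84 for Oas3 (SE 0.367, -1.61 to -0.07), -0.76 for Oasl (SE 0.212, -1.21 to -0.32) and -0.51 for Oasl2 (SE 0.194, -0.92 to -0.10). Without the fifth rats that of Oas3 was -0.54. All 7 rows had an unadjusted p under 0.05 in that direction, as did 2.34% of all genes. After adjustment over 16734 genes none passed in edgeR, with adjusted p = 0.862 for Oas2, Oas1a, Oas1g and Oas1i and 1.00 for the rest, and 0 genes passed at all (0%). In Oas1g, Oas1i, Oas2 and Oasl every CSAA+PTS rat was below every CSAA+RSV rat, which held for 0.299% of all genes.

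Against CSAA+CGA the family was likewise lower with CSAA+PTS, by log2 fold changes from -1.03 in Oas2 (SE 0.242, 95% interval -1.54 to -0.53) and -0.80 in Oas1a (SE 0.228, -1.28 to -0.33) to -0.46 in Oasl2 (SE 0.184, -0.85 to -0.08). All 7 rows had an unadjusted p under 0.05, against 2.56% of genes lower at that limit, and the edgeR adjusted p was 0.828 for each, with 0 genes past the FDR (0%). In 3 rows, Oas1g, Oas1i and Oas2, every CSAA+PTS rat was below every CSAA+CGA rat (0.508% of all genes). Oas1g and Oas1i are 1 measurement, and the gaps were very small. In Oas1g, CSAA+PTS Rat3 had 7.6369 CPM and CSAA+CGA Rat5 had 7.6377 CPM. In Oas2, CSAA+PTS Rat4 had 3.70 CPM and CSAA+CGA Rat3 had 3.77 CPM. This comparison and that with CSAA+RSV share the CSAA+PTS rats. CSAA+RSV against CSAA+CGA, which uses none of them, gave log2 fold changes from 0.04 in Oasl2 to 0.27 in Oas1a, with 0 of 7 rows at an unadjusted p under 0.05 (1.95% of all genes), an adjusted p of 0.9993 in edgeR for each row and 0 genes past the FDR (0%). The 95% interval for Oas1a was -0.23 to 0.78. Over these 3 pairs of compounds, no difference in any member passed the adjusted edgeR test. DESeq2 fitted to only the 2 diets compared, a setting chosen after the data had been seen, called Oas2 in CSAA+PTS against CSAA+RSV (adjusted p = 0.0106) and against CSAA+CGA (adjusted p = 0.0123), among 2 and 3 genes in all. Fitted to the 4 diets, DESeq2 gave an adjusted p of 0.0514 and 0.250 for them, and called 1 gene, no member, in CSAA+PTS against CSAA+RSV, as did limma-voom. In CSAA+PTS against CSAA+CGA, CSAA+RSV against CSAA, CSAA+CGA against CSAA and CSAA+RSV against CSAA+CGA those 2 tools called 0 genes.

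Within a diet, the members formed 2 sets that varied together from rat to rat, a split seen in these values. With diet means removed, Oas1a and Oas1g had a Pearson r of 0.91 over 19 rats. RefSeq gives these names to the same gene, and how reads were divided between the rows is uncertain, so this r may hold shared reads. Oas2, Oas3, Oasl and Oasl2 had r of 0.81 to 0.94 with each other, highest between Oas3 and Oasl2. Between the sets r was only -0.09 to 0.33. Oas1f had an r of 0.81 with Oas1a, 0.63 with Oas1g and 0.46 to 0.70 with the other set. Among single rats, CSAA Rat4 was the highest CSAA rat in Oas2, Oas3, Oasl and Oasl2, but the lowest in Oas1g at 10.1 CPM and inside the range of the other CSAA rats in Oas1a at 58.8 CPM. CSAA+RSV Rat5 had the highest Oas2, Oas3 and Oasl2 of its diet and the lowest Oas1a and Oas1g. Along the chromosome, Oas3 and Oas2 are the neighbours of the Oas1 copies, while Oasl and Oasl2 lie past 60 other protein-coding genes. A tie between position and the split was not tested. Without the fifth rats, r was 0.82 within the Oas1 set, 0.82 to 0.94 in the other and -0.36 to 0.11 between them, and Oas1f had 0.61 with Oas1a, 0.26 with Oas1g and 0.62 to 0.67 with the other set. Without removing diet means, which adds the lower level with CSAA+PTS to every gene, r was 0.48 to 0.72 between the sets. The rats share libraries and depth across genes, and these r values are a description.

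**Figure D4:**
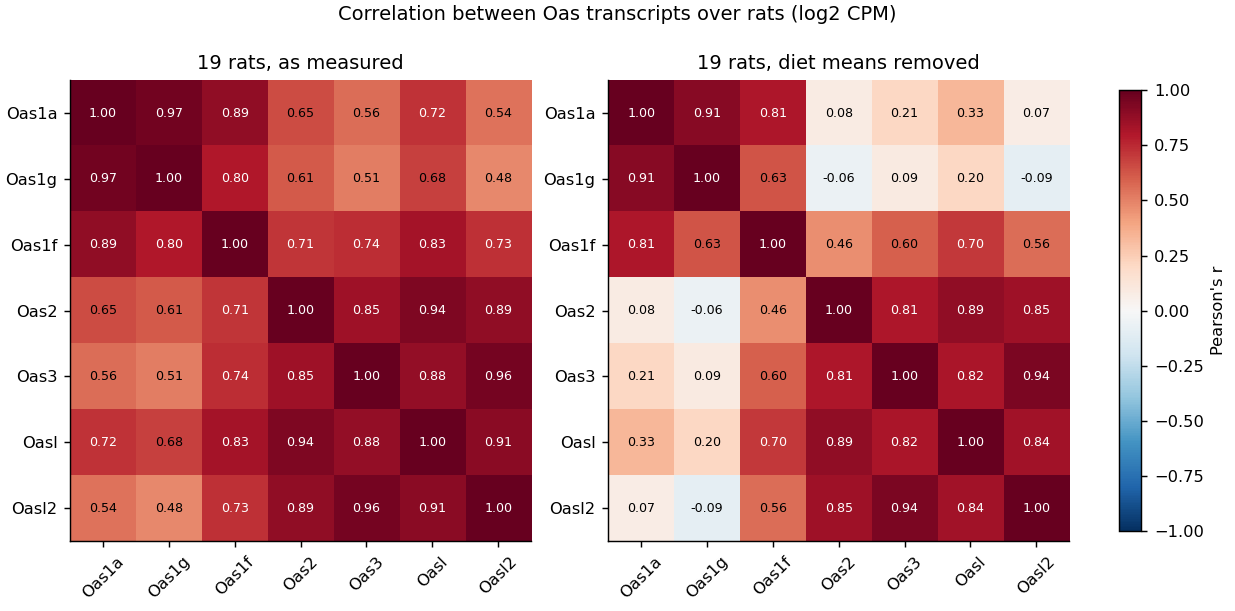
Pearson's r between log2 CPM of the 6 separate Oas measurements and Oas1f over 19 rats, as measured (left) and with each diet's mean removed (right), on a colour scale of -1 to 1. On the right the pair Oas1a and Oas1g (0.91) and the block of Oas2, Oas3, Oasl and Oasl2 (0.81 to 0.94) separate, with values of -0.09 to 0.33 between them.

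Outside the family, the 10 genes whose level over the 19 rats was most like the mean of the 6 standardised measurements included 4 from the interferon lists used here (Usp18, Ifit2, Xaf1 and Rtp4). Usp18, which removes Isg15 from proteins and dampens the interferon receptor, led with r = 0.90, followed by Ifit2 (0.89), which binds viral RNA. The others were Znfx1 (0.89), Xaf1 (0.89), Rtp4 (0.87), Slfn4 (0.87), Myd88 (0.86), Trafd1 (0.85), Tor3a (0.85) and Cebpa (0.85). With diet means removed, these 10 kept r of 0.62 (Rtp4) to 0.85 (Slfn4). Ifit2 had 35.6 ± 8.31 CPM with CSAA+PTS (SD, n = 5), 63.5 ± 10.7 with CSAA+RSV (n = 4), 55.3 ± 16.6 with CSAA+CGA (n = 5) and 55.02 ± 16.2 CPM with CSAA (n = 5). The CSAA+PTS mean was lowest, but the gene was picked for following the family over all rats, so this restates the choice. The means of the other diets lay within each other's SD.

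Genes of the same pathway were read from 4 lists, which were also drawn up with results of these data known. Counts over these lists are therefore a description and carry no test. Of the genes that act downstream of 2-5A, 0 of 3 were below 0 for CSAA+PTS against CSAA, where 47.2% of all genes were. On the log2 scale Abce1, a protein that counters the action of 2-5A, differed by 0.23 (SE 0.0844), and Pde12 and Akap7, phosphodiesterases that degrade 2-5A, by 0.12 (SE 0.123) and 0.36 (SE 0.284). The median of these 3 was 0.23, and 0 passed the FDR. Of them 1 was higher at an unadjusted p under 0.05, as were 510 of all 16734 genes. With 3 genes these counts say little about the pathway.

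Other genes of the double-stranded RNA response stood nearer to the Oas genes. Of 9 listed names 8 were measured, and all 8 were below 0 for CSAA+PTS against CSAA, with a median of -0.41. Of them 5 had an unadjusted p under 0.05, where 4.54% of all genes were lower at that limit. Mavs, the adaptor of the RNA helicase sensors, was at -0.62 (SE 0.192), Adar, which edits double-stranded RNA, at -0.54 (SE 0.145), and the helicases Dhx58 and Ifih1 at -0.43 (SE 0.141) and -0.42 (SE 0.191). Ddx58 was at -0.40 (SE 0.181), Zbp1 at -0.26 (SE 0.185), Eif2ak2, the kinase PKR, at -0.15 (SE 0.122) and Tlr3 at -0.07 (SE 0.388). Against CSAA+RSV 5 of the 8 and against CSAA+CGA 4 of the 8 were lower with CSAA+PTS at an unadjusted p under 0.05. That held for 2.34% and 2.56% of all genes. As the list was drawn up with results of these data known, its counts carry no test.

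Of 19 other interferon-stimulated genes, 18 were below 0 with CSAA+PTS against CSAA (median -0.45), and 10 were lower at an unadjusted p under 0.05. Of all genes, 47.2% were below 0 and 4.54% were lower at that limit. This list too was drawn up with results of these data known, so the counts describe it and test nothing. Isg15, a ubiquitin-like protein, was at -0.92 (SE 0.254) and Bst2, which tethers viruses to the cell, at -1.01 (SE 0.385). Other genes of the list were close to no change, among them Mx1 at -0.05 (SE 0.130), Ifit1 at -0.14 (SE 0.211), Parp14 at -0.13 (SE 0.113) and Rsad2 at 0.11 (SE 0.269). Among 11 genes of the interferon signal, Irf7, a factor that is itself induced, was at -0.88 (SE 0.242) and Irf9, the DNA-binding part of ISGF3, at -0.28 (SE 0.110). The receptor chains Ifnar1 and Ifnar2 were at -0.12 (SE 0.0918) and -0.12 (SE 0.122). The median of that list was -0.12, with 8 of 11 below 0 and 3 lower at an unadjusted p under 0.05. In edgeR 0 genes of any list passed the FDR in any comparison. For CSAA+RSV and for CSAA+CGA against CSAA, 0 genes of the 4 lists had an unadjusted p under 0.05, and the list medians lay between -0.04 and 0.11.

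**Figure D5:**
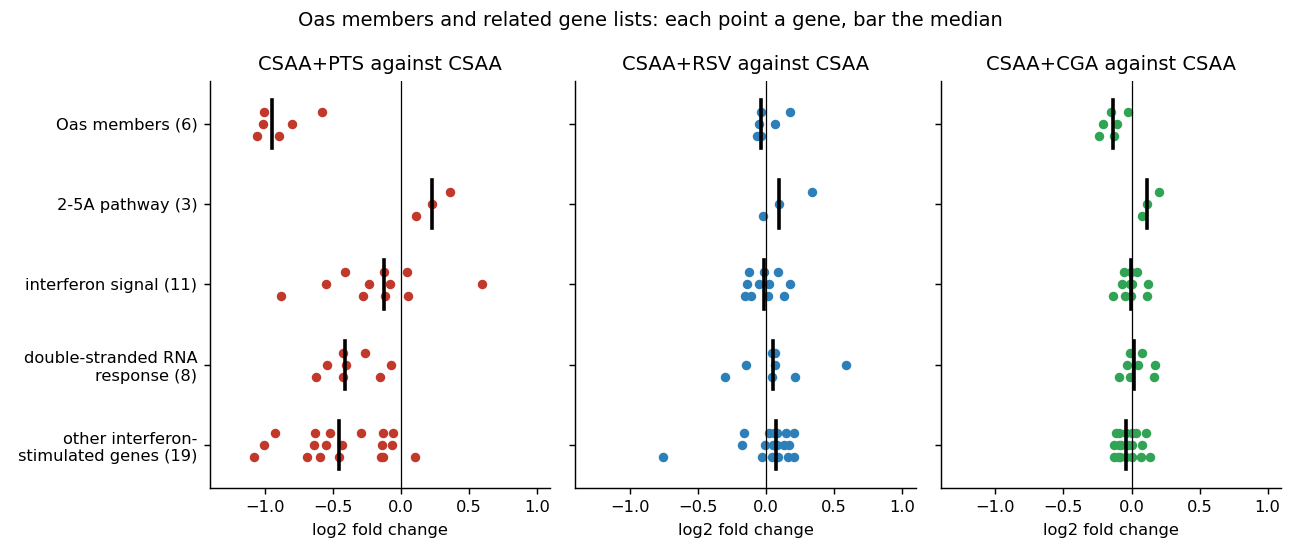
Log2 fold changes against CSAA of the 6 separate Oas measurements and of the genes of 4 related lists (points, a gene each; number of genes in brackets), with the median as a bar, for CSAA+PTS, CSAA+RSV and CSAA+CGA. With CSAA+PTS the Oas bar is at -0.95 and that of the 2-5A pathway at 0.23, and with the other 2 diets every bar lies between -0.14 and 0.11.

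In whole blood, fewer cells of a type and less RNA per cell cannot be told apart, so marker lists were set beside the family. The mean log2 CPM of 8 neutrophil markers was 4.55 with CSAA+PTS (3.94 to 5.32) and 4.51 with CSAA (4.32 to 4.93). That of 6 monocyte markers, of 7 listed, was 4.35 with CSAA+PTS (4.12 to 4.60) and 4.35 with CSAA (4.13 to 4.58), and that of 5 plasmacytoid dendritic cell markers was 1.495 with CSAA+PTS (1.13 to 1.89) and 1.47 with CSAA (1.18 to 1.69). T cell (7 markers), B cell (6), NK cell (5 of 6) and platelet (6 of 7) lists also overlapped between these diets. The 7 measured erythroid markers, of 8 listed, were lower, at 11.98 with CSAA+PTS (11.38 to 12.77) and 12.67 with CSAA (12.25 to 13.04). They were at 12.24 with CSAA+RSV (11.97 to 12.58) and 12.51 with CSAA+CGA (11.81 to 12.91). Hemoglobin genes took 6.56% (4.12 to 11.2) of the counts with CSAA+PTS and 13.6% (10.8 to 15.8) with CSAA. Their share was also low with CSAA+RSV, at 8.42% (3.78 to 11.5), and was 11.9% (5.93 to 16.2) with CSAA+CGA. With hemoglobin genes left out before scaling, the log2 fold change of Oas1a was -1.02 and that of Oas2 was -1.06. That setting changes the scaling and not the mix of cells in a sample, so it does not address the erythroid share. With diet means removed, the neutrophil list had an r of 0.49 to 0.71 and the monocyte list one of 0.46 to 0.69 with every member over 19 rats. The erythroid list had 0.44 with Oas1a and 0.58 with Oas1g, and -0.22 to 0.20 with the other 4 members. The NK cell list had 0.50 and 0.59 with these Oas1 rows and -0.33 to 0.02 with the other 4, and the platelet list had 0.52 and 0.50, and -0.19 to 0.17. The B cell list had -0.62 and -0.55 with Oas1a and Oas1g and -0.16 to 0.14 with the other 4, and the plasmacytoid dendritic cell list had -0.60 with both and 0.09 to 0.36 with the others. The T cell list had -0.11 to 0.04 with every member. The part of these cells in the results was not tested.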

How the data were processed

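Raw counts per Ensembl gene, deposited by the authors, were the only measured values used. Per the labels and the study's methods, the authors trimmed reads with Trimmomatic 0.32, checked them with FastQC 0.11, aligned them with TopHat2 2.1 to rn6, a build of the rat genome, and made the counts in Rsubread. For the strand setting and for reads that map to several places, the rule was not given in the sources used here, so near-identical and overlapping genes may share counts. Libraries were made with a stranded kit, 4 rats to a lane, and the tie between rats and lanes is not given either.

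CSAA+RSV Rat4 was left out. A gene was removed if at least 5 of the 19 rats had under 2 reads of it, which kept 16734. One edgeR 4.0.16 fit in R 4.3.3 covered the 4 diets (TMM, quasi-likelihood test, two-sided, diet as the only term), with Benjamini-Hochberg adjustment over all genes kept and an FDR limit of 0.05. CPM are counts for each 1000000 reads of the TMM-scaled library size. The fit was tested on simulated data. Total counts per rat limit the precision of each level, and intervals are 95%. The members, gene lists and comparisons were chosen with earlier results of these data known. Some genes of the pathway lists are not reported here and were left out of the list counts and medians. Genes were named by rule: all members, genes of the 4 pathway lists, the other Oas rows, and 10 genes with the highest Pearson r with the mean of the 6 standardised member measurements among genes with a mean of at least 1 CPM. Alternatives were DESeq2 1.42.0, limma 3.58.1 (voom with sample weights), DESeq2 size factors, hemoglobin genes left out, other filters, 2 diets only, CSAA+RSV Rat4 kept, the fifth rats left out, a replicate block, and each rat left out in turn. DESeq2 on the 2 diets compared was added after the data had been seen. Promoter windows came from RefSeq (GRCr8), where 6 of 8 members matched by symbol.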

Additional observations from a re-analysis of the deposited data

Results flagged for a closer look

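Among 24 groups of 4 or 5 rats (6 Oas measurements in 4 diets), 2 held a rat far from the rest of its group, and chance flags about 1 group in 20. CSAA Rat4 had the highest Oasl level of its diet, 19.4 CPM, with a gap to the next rat of 0.739 of the range. CSAA Rat1 had the lowest Oas1a level of its diet, 46.1 CPM, with a gap of 0.726 of the range.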

How the results depend on the processing

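For CSAA+PTS against CSAA, CSAA+RSV and CSAA+CGA, the log2 fold change of every measured member stayed below 0 under each alternative run. For CSAA+PTS against CSAA, edgeR called 0 genes, while DESeq2 on 4 diets called 4 genes with 2 member rows, DESeq2 on 2 diets, chosen after the data had been seen, called 13 genes with 2 member rows, and limma-voom with sample weights called 26 genes with 3 member rows. The members were picked from this contrast, so these member counts restate that choice and test nothing, and Oas1g and Oas1i count as 2 rows but are 1 measurement. With each rat left out in turn, 0 to 8 genes and 0 member rows were called, the 8 without CSAA+PTS Rat2. For CSAA+PTS against CSAA+RSV, DESeq2 on 4 diets and limma-voom called 1 gene each, and DESeq2 on 2 diets called 2 genes with 1 member row, Oas2 (-1.20). For CSAA+PTS against CSAA+CGA, DESeq2 on 2 diets called 3 genes with 1 member row, Oas2 (-1.02). The cause was not tested.

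Log2 fold changes near 0 changed sign, none of them past the threshold on either side. With limma-voom, CSAA+RSV against CSAA was 0.15 for Oasl, 0.054 for Oasl2, 0.0071 for Oas1g and 0.18 for Oas3. CSAA+CGA against CSAA was then 0.0055 for Oasl, 0.084 for Oasl2, 0.12 for Oas2 and 0.22 for Oas3, and CSAA+RSV against CSAA+CGA was -0.030 for Oasl2 and -0.041 for Oas3. With CSAA+RSV Rat4 kept, Oas1a was -0.010 for CSAA+RSV against CSAA. Without the fifth rats, Oas1g was 0.10 for CSAA+RSV against CSAA, Oas2 was 0.025 and Oas3 was 0.11 for CSAA+CGA against CSAA, and Oasl2 was -0.13 and Oas3 was -0.26 for CSAA+RSV against CSAA+CGA. With each rat left out in turn, CSAA+RSV against CSAA ran from -0.088 to 0.23 for Oas1a, -0.15 to 0.11 for Oas1g, -0.21 to 0.22 for Oas3, -0.15 to 0.16 for Oasl and -0.15 to 0.14 for Oasl2. CSAA+CGA against CSAA ran from -0.17 to 0.24 for Oas2, -0.31 to 0.15 for Oas3, -0.23 to 0.052 for Oasl and -0.20 to 0.098 for Oasl2. CSAA+RSV against CSAA+CGA ran from -0.099 to 0.25 for Oas3 and -0.042 to 0.12 for Oasl2.

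The replicate block called 0 genes in each comparison. With it the edgeR adjusted p of the members ran from 0.0565 to 0.488 for CSAA+PTS against CSAA+RSV. For CSAA+PTS against CSAA+CGA it ran from 0.242 to 0.432. The block moved the log2 fold change of CSAA+RSV against CSAA to 0.083 for Oasl, 0.073 for Oasl2 and 0.16 for Oas3, and that of CSAA+CGA against CSAA to 0.031 for Oas2. The diets share rat numbers. For CSAA+PTS against CSAA, same-numbered rats deviated together by an r over 0.1 in 4 of 5 pairs (lowest r 0.05, highest 0.51). In 4 of 5 pairs that r was also above those with every other CSAA rat. In the other comparisons an r over 0.1 was seen in fewer than all pairs, and the same-numbered rat was the closest in 1 or 2. The fifth rats were a closest pair in every comparison, with r of 0.44 (CSAA+CGA against CSAA) to 0.77 (CSAA+PTS against CSAA+RSV). The main fit did not read the numbers as pairs, and the block is given as an alternative to it.

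With 4 or 5 rats a diet, no member difference passed an adjusted edgeR test, and Oas2, at 59 or more reads a rat, rests on the fewest reads among the members.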

Other observations

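CSAA+RSV Rat4, which was left out of the levels and tests of the report and kept in 1 alternative only, held 7 to 42 reads in each member row. By its own total this gave 38.3 CPM for Oas1a (exact Poisson 95% interval 26.4 to 53.8), 8.13 CPM for Oas2 (3.27 to 16.7), 10.5 CPM for Oas3 (4.78 to 19.8) and 48.8 CPM for Oasl2 (35.2 to 65.9). The intervals cover counting error only.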
